A study of Homo sapiens with 6 samples.

Results

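The 43 genes of fatty acid and triglyceride metabolism followed here make, lengthen, desaturate, take up, burn, store and export fatty acids. They were taken by symbol, or by an older symbol, from a list that runs from synthesis to storage, and all 43 were found among the 23593 named genes of the array. Perilipin 2 carries its older name ADFP on the array and PNPLA3 the name ADPN. The 43 genes had 72 array features, and 25 genes had more than 1. Each gene was read from its brightest feature, by mean log2 intensity.

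The tested cells were HCC-LM3, a human hepatocellular carcinoma line, infected with a lentivirus carrying an shRNA against ASPP2 (shASPP2, n = 3 arrays). The control was the same line infected with a control shRNA lentivirus (shNon, n = 3 arrays). RNA was taken a week after infection from separate cultures, per the labels, and each sample had its own NimbleGen array labelled with Cy3. ASPP2, the product of TP53BP2, is a partner of p53. All values come from 1 line and from whole infected cultures, in which fewer cells that express a gene and less RNA per cell cannot be told apart. The target TP53BP2 was at 228, 216 and 147 RMA intensity units on the shASPP2 arrays, against 332, 488 and 452 units on the shNon arrays. Its log2 fold change was -1.11 (SE 0.25), and its limma adjusted p was 0.204 over all genes (0.0256 with the trend and robust variance described further on). The target itself missed the threshold in the first of these fits, although its arrays did not overlap, and its second feature gave -1.41.

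Fatty acids are built in the cytosol from citrate carbon by ACLY, the acetyl-CoA carboxylases and FASN, then lengthened by ELOVL enzymes and desaturated by SCD and the FADS enzymes. Liver cells also take them up, activate them to acyl-CoA with ACSL enzymes, and either burn them in mitochondria after the CPT step or esterify them to triglyceride. Triglyceride is kept in droplets coated by perilipins, released by lipases, or loaded onto apolipoprotein B by MTTP for export. Several of the synthesis and desaturation genes are textbook targets of SREBP-1 and LXR, and many oxidation genes of PPARα.

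Median feature intensity was 111 to 122 on the 6 arrays. Probes of random sequence, which match no transcript, read 30.4 to 30.8 on the shASPP2 arrays and 31.8 to 33.3 on the shNon arrays, and a gene is called dim here when its mean level over all arrays is under 2 times that level. By this measure 36 of the 43 genes were above it, against 13877 of all 23593 genes. The 7 dim members were ELOVL2, ELOVL4, ELOVL7, SCD5, FABP1, SLC27A2 and LIPE. Array 3 of shNon had the lowest correlation with the others, at r = 0.958 to 0.966 over features, where the pairs among the other arrays had 0.969 to 0.985. Of 12 hepatocyte markers 6 were above the dim level, among them ALB, TF, HNF4A, FGB and AMBP, while AFP, SERPINA1, APOA1, APOB, TTR and AHSG were dim. The 12 summed to 7053 to 8489 units in shASPP2 and 8577 to 9811 units in shNon. FGB, a fibrinogen chain, fell to 1128 ± 175 units in shASPP2, against 3727 ± 293 units in shNon (SD, n = 3 each; log2 fold change -1.73, limma adjusted p = 0.0361), while HNF4A had 0.56 and TF -0.39, neither past the threshold. Of 4 markers of simple epithelium 3 were above it, all but EPCAM, with sums of 19812 to 23497 units in shASPP2 and 15031 to 16623 units in shNon. KRT8, the keratin behind most of these sums, was at 0.71 on the log2 fold change scale, and CDH1, E-cadherin, was at -1.62, with 200 ± 32.9 units in shASPP2 and 613 ± 72.7 units in shNon (SD, n = 3 each; limma adjusted p = 0.0518; 3.70e-04 with trend and robust variance). The markers ADIPOQ, LEP, PLIN1, FABP4 and CFD of fat cells were dim, and CIDEC was above the level.

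Of the 5 desaturases 4 were higher in shASPP2 on every array, and FADS2, PNPLA3 and CD36 were each about 2-fold higher than in shNon. No member passed the test over all genes. Of 43 members, 0 had a limma adjusted p under 0.05, against 0.102% of all genes, and the lowest adjusted p was 0.157. An unadjusted p under 0.05 was found for 10 members, or 23.3% of them, against 11.5% of all genes. Of these 10, 9 were higher in shASPP2 (5.54% of all genes) and 1 was lower (5.93% of all genes). The arrays of the groups did not overlap for 17 members, or 39.5%, against 18.8% of all genes. Brighter genes pass such marks more often. Among all genes above the dim level, 13.3% had an unadjusted p under 0.05 and 23.9% did not overlap, and among the 36 such members these shares were 27.8% and 44.4%. By direction, 6.87% of those brighter genes met the unadjusted p and were higher, and 6.46% met it and were lower. When limma's variance was let to follow the level and outlying variances were downweighted (trend and robust), 3 members passed an adjusted p of 0.05, all higher in shASPP2, against 2.14% of all genes (0.996% higher). They were FADS1, FADS2 and PNPLA3. Among all brighter genes 3.61% passed in that fit, 1.68% higher and 1.93% lower.

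Members without overlap that were higher in shASPP2 numbered 12, namely ACLY, ELOVL1, ELOVL2, ELOVL5, SCD, FADS1, FADS2, FADS3, CD36, ACSL1, PNPLA3 and MTTP (9.3% of all genes). Of these ELOVL2 was dim, and its other feature gave -0.24 with overlap. Members without overlap that were lower numbered 5, namely ELOVL6, ACSL3, HADHB, LPIN2 and PNPLA2 (9.52% of all genes). Among all genes above the dim level 12.4% were higher and 11.6% lower without overlap, and among the 36 such members 11 and 5 were. The median log2 fold change was 0.23 over the 43 members and 0.01 over all genes. That median rests in part on shNon array 3, without which it was 0.03. It was 0.10 with the mean of all features of a gene in place of the brightest. The counts therefore describe the list better than its median.

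**Figure D1:**
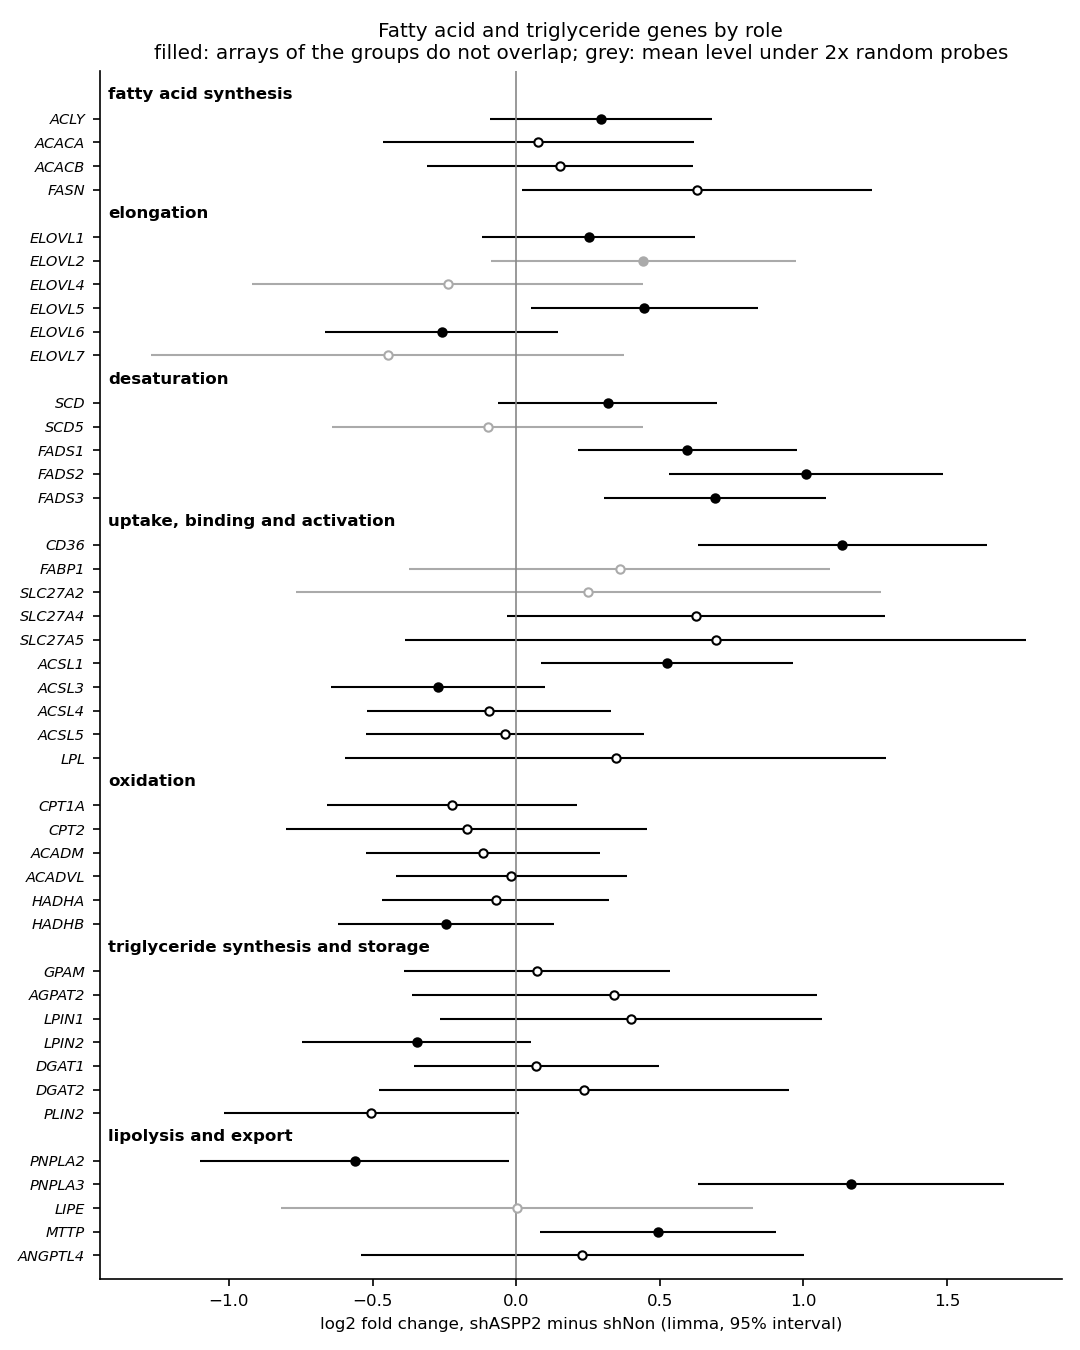
Log2 fold change of each of the 43 members (shASPP2 minus shNon, x axis) with limma's 95% interval, ordered by role from synthesis to export. FADS2, CD36 and PNPLA3 lie above 1, all 6 oxidation genes lie below 0, and filled points mark the 17 genes whose arrays do not overlap.

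Promoter windows of the desaturase genes are shown because these 3 neighbouring genes were higher together, and those of ACSL1 and PNPLA2 because they hold the searched sterol response element core. The windows are 300 bases from RefSeq on GRCh38.p14, running from 250 bases before to 50 after an annotated start, 5′ to 3′ on the gene's strand. Windows of 38 members were searched, 59 windows in all. None was searched for FASN, PNPLA3, DGAT1, DGAT2 and LPL, so the counts below do not cover these genes. Capitals mark CCAAT boxes on either strand in the FADS windows, and the core TCACNCCAC, here on the opposite strand, in the ACSL1 and PNPLA2 windows. A CCAAT box on the opposite strand of the ACSL1 window is left in lower case.
FADS1, chr11:61816954-61817253, minus strand: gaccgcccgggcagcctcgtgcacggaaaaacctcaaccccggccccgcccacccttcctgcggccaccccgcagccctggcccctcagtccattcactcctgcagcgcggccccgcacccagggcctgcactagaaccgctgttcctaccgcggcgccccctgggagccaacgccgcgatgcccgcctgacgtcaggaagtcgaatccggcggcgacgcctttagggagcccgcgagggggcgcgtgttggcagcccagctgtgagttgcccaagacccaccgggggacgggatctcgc
FADS2, chr11:61816154-61816453, plus strand: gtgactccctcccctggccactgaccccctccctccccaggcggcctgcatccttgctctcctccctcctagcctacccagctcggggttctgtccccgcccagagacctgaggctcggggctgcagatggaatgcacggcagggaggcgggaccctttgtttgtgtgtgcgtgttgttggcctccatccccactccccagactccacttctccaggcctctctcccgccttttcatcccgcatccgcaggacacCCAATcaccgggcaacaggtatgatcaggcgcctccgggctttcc
FADS3, chr11:61891496-61891795, minus strand: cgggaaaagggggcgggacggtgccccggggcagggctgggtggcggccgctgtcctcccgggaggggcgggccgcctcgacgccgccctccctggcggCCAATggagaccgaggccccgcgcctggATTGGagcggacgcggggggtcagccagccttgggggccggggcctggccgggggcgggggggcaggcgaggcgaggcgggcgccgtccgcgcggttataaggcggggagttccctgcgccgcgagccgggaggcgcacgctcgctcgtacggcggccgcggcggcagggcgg
ACSL1, chr4:184805504-184805803, minus strand: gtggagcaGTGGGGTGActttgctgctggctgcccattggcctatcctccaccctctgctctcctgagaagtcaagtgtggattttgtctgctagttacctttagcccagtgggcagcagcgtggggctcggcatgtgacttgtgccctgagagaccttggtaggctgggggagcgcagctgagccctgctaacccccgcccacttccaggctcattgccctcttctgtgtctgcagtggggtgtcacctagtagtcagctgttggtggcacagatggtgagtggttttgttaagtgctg
PNPLA2, chr11:818664-818963, plus strand: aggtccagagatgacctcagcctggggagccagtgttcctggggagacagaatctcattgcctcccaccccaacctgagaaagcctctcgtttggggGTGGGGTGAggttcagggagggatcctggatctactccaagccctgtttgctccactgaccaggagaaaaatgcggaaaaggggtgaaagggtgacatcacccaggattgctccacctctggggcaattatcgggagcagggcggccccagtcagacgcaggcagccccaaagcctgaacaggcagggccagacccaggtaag
The core TCACNCCAC was in 2 of the 59 windows and in 1.13% of all 35116 windows of the table. ACSL1 held it in 1 of its 5 windows. These 2 genes differed in direction, ACSL1 being higher and PNPLA2 lower in shASPP2. CCAAT was in 20 of the 59 windows, those of SCD and MTTP among them, and in 34.6% of all windows. The FADS1 window held none, FADS2 held 1 in the window shown and none in a second window, and FADS3 held 2. The E-box CACGTG was in 4 of the 59 windows, those of ELOVL4, ELOVL5, PLIN2 and LPIN2, and in 7.26% of all windows. The direct repeat bound by PPAR receptors was in none of the 59 and in 0.0228% of all windows. Both strands were searched, and no match overlapped a match of another motif. A match is a match of letters only, and no match says nothing beyond these windows.

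Synthesis genes were measured well above the dim level, and all 4 had positive log2 fold changes, with a median of 0.22. FASN, which builds palmitate (chromosome 17, 77629502 to 77649395, hg18), had 1979, 2899 and 2833 units in shASPP2, against 1375, 2193 and 1455 units in shNon. Its highest shNon array lay above its lowest shASPP2 array, so the groups overlapped. The log2 fold change was 0.63 (SE 0.26, limma adjusted p = 0.421, 0.121 with trend and robust variance). ACACA, the carboxylase that commits carbon to fatty acids, had 785, 1258 and 861 units in shASPP2, against 1026, 852 and 829 units in shNon. Its log2 fold change was 0.08 (SE 0.23, limma adjusted p = 0.922), and its sign turned without shASPP2 array 2 (-0.13). ACLY, which makes cytosolic acetyl-CoA from citrate, did not overlap and had a log2 fold change of 0.29 (SE 0.16). ACACB, the carboxylase isoform at mitochondria, had 0.15.

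The fatty acid elongases went both ways. ELOVL5, which lengthens polyunsaturated fatty acids, had 700.2, 742 and 607 units in shASPP2, against 499, 517 and 484 units in shNon. All shASPP2 arrays were above all shNon arrays, with a log2 fold change of 0.45 (SE 0.17, limma adjusted p = 0.389). The other ELOVL5 feature gave 0.29 with overlap. ELOVL1, an elongase of long saturated chains, had 0.25 without overlap. ELOVL6, which lengthens palmitate, had -0.26 without overlap on the feature used and 0.03 on its other feature, so its direction depends on the feature. ELOVL2, ELOVL4 and ELOVL7 were dim, at group means of 24.6 to 74.4 units, and their differences are not read.

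Among the 5 desaturases, 4 were higher without overlap, against 9.3% of all genes, and SCD5 had -0.10. With trend and robust variance 2 passed as higher, against 0.996% of all genes. FADS1 and FADS2, the delta-5 and delta-6 desaturases of polyunsaturated fatty acids, lie beside FADS3 on chromosome 11, between 61325946 and 61415582 on hg18. FADS2 had 2618, 3089 and 2699 units in shASPP2, against 1195, 1725 and 1301 units in shNon. The log2 fold change was 1.01 (SE 0.20, 95% interval 0.53 to 1.48), with a limma adjusted p of 0.179 and 8.19e-04 with trend and robust variance. Every shASPP2 array lay well above the highest shNon array. The other FADS2 features gave 1.02 and 0.92, and in the trend and robust fit over all features both passed, with adjusted p-values of 0.00131 and 0.0200, against 2.11% of all features. Without any 1 of the 6 arrays FADS2 still passed in the fit with trend and robust variance, at adjusted p-values of 5.72e-04 to 0.0153.

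FADS1 had 6892, 6915 and 6424 units in shASPP2, against 4269, 4859 and 4283 units in shNon. The groups were apart, with a log2 fold change of 0.60 (SE 0.16), a limma adjusted p of 0.267 and 0.00845 with trend and robust variance. Leaving out shNon array 1 took the trend and robust value to 0.0554, and leaving out shASPP2 array 2 took it to 0.0562, both above the threshold of 0.05. Its other features gave 0.35 and 0.48, both without overlap. In the trend and robust fit over all features neither passed, at adjusted p-values of 0.213 and 0.0858. The FADS1 call therefore depends on the feature. FADS3, a relative whose substrates are less well known, had 696, 773 and 646 units in shASPP2, against 446, 428 and 433 units in shNon. It was higher on every array, with a log2 fold change of 0.69 (SE 0.16, limma adjusted p = 0.222; 0.0572 with trend and robust variance).

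SCD, the main delta-9 desaturase that makes oleate and palmitoleate (chromosome 10, 102096761 to 102114578, hg18), had 3832, 3862 and 3961 units in shASPP2, against 2840.4, 3352 and 3174 units in shNon. The groups did not overlap, and the log2 fold change was 0.32 (SE 0.16, limma adjusted p = 0.509). A second SCD feature, at 3307 ± 207 units in shASPP2 and 2002 ± 311 units in shNon (SD, n = 3 each), gave 0.73 and passed over all features with trend and robust variance (adjusted p = 0.00656). The 2 SCD features share a direction and differ in size. SCD5, a brain-enriched desaturase, was dim on all of its 3 features.

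The neighbours of the FADS genes were looked at after their values were seen. Within 150 kb of the FADS2 start, 9 other genes were on the array, and each had an unadjusted limma p of 0.15 or more. FEN1 and TMEM258, next to FADS1, had log2 fold changes of -0.23 and -0.24, and RAB3IL1, next to FADS3, had 0.27. FEN1 was lower on all shASPP2 arrays, and the others overlapped.

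**Figure D2:**
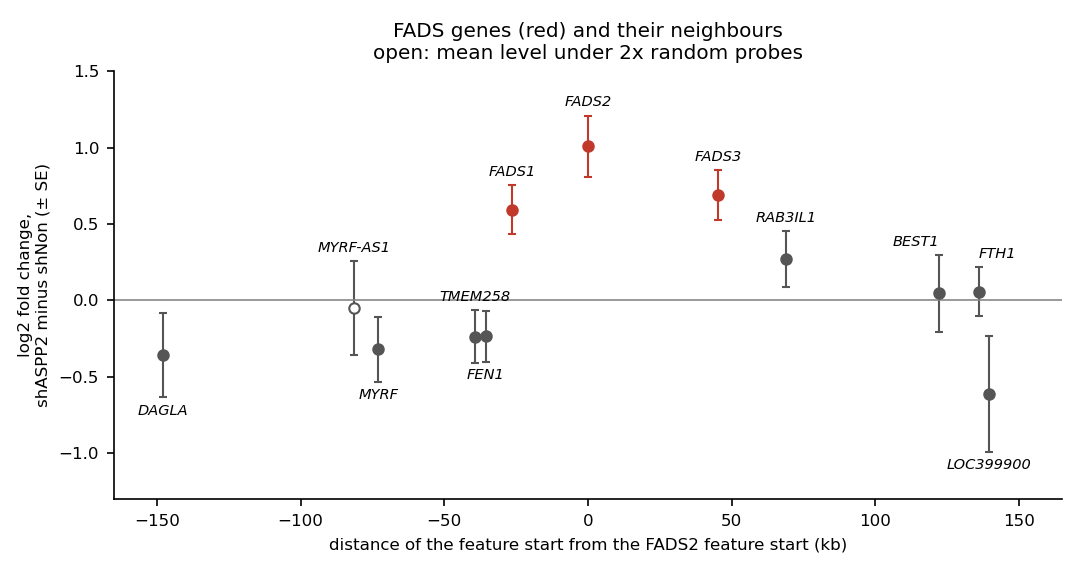
Log2 fold change (y axis, shASPP2 minus shNon, bars are limma's SE) against the distance in kb of each gene's feature start from that of FADS2 (x axis). FADS1, FADS2 and FADS3 lie at 0.60, 1.01 and 0.69, and the 9 neighbours lie between -0.61 and 0.27.

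Among genes of uptake and activation CD36 stood highest and the ACSL enzymes were mixed. CD36, a fatty acid translocase and scavenger receptor (chromosome 7, 80105892 to 80144262, hg18), had 301, 285 and 198 units in shASPP2, against 110.4, 115 and 126 units in shNon. No array of shASPP2 was below an array of shNon, and the fold was 2.20 (log2 1.14, SE 0.21, limma adjusted p = 0.157; 0.0543 with trend and robust variance). Its other features gave 1.15 and 1.47, also without overlap. CD36 is also made by macrophages, endothelium and fat cells. Of the markers of macrophages and leukocytes 1 of 6 was above the dim level, CD68, and PTPRC, CD14 and CSF1R were dim. Those markers summed to 3635 to 4173 units in shASPP2 and 2836 to 3692 units in shNon, nearly all of it CD68. Endothelial markers had 1 of 5 above the dim level, PECAM1, with VWF and KDR dim, and summed to 987 to 1220.3 units in shASPP2 and 2025 to 2137 units in shNon. For fibroblasts and stellate cells 4 of 6 were above it, and the sum was 552 to 722 units in shASPP2 and 475 to 694 units in shNon. For fat cells 1 of 6 was above it, and the sum was 254 to 329 units in shASPP2 and 321 to 380.0 units in shNon. The part of other cell types in the CD36 value was not tested.

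ACSL1, the main acyl-CoA synthetase of liver and fat, had 5180.0, 3868 and 4139.5 units in shASPP2, against 2889, 2906 and 3316 units in shNon. It was higher on every shASPP2 array, by 0.52 log2 (SE 0.19, limma adjusted p = 0.365), and by 0.71 on its other feature, which passed over all features with trend and robust variance (adjusted p = 0.0115). ACSL3, a synthetase found at forming lipid droplets, had -0.27 without overlap, and ACSL4 and ACSL5 had -0.10 and -0.04 with overlap (ACSL5 had 0.13 without shNon array 2). The fatty acid transport protein SLC27A4 had 0.63 (SE 0.28) and SLC27A5, a liver acyl-CoA and bile acid-CoA ligase, 0.69 (SE 0.46), both with overlap. The SLC27A5 value rests on shNon array 3, which read 157 units where the other 5 arrays read 461 to 603. LPL, the lipase that frees fatty acids from lipoproteins, was above 2 times the random-probe level on 3 of 6 arrays, and FABP1 and SLC27A2 were dim, although both are abundant in liver.

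Mitochondrial oxidation genes were all measured, and none was higher in shASPP2. All 6 had log2 fold changes below 0, from -0.24 to -0.02, and 0 of 6 had an unadjusted p under 0.05. CPT1A, the gate of fatty acid entry into mitochondria, had 1064, 1092 and 1175 units in shASPP2, against 1088, 1472 and 1355 units in shNon. The groups overlapped, with a log2 fold change of -0.22 (SE 0.18, 95% interval -0.66 to 0.21, limma adjusted p = 0.678). HADHB, a subunit of the trifunctional protein, was lower without overlap at -0.24, while its partner HADHA had -0.07. Without shASPP2 array 3 the values of HADHA and CPT2 turned to 0.00 and 0.02, and ACADVL turned to 0.05 without shNon array 2 or shASPP2 array 2. Second features gave values further below 0 for CPT2 (-0.66), ACADM (-0.64) and HADHB (-0.45), each without overlap. With the mean of all features, ACADM (-0.38) and HADHB (-0.35) had unadjusted p-values of 0.0426 and 0.0377, with limma adjusted p-values of 0.380 and 0.369.

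Set array by array, desaturation and oxidation kept their side of the shNon arrays, as did synthesis, with medians of 0.20 to 0.46 on the shASPP2 arrays and -0.14 to 0.06 on the shNon arrays. The medians of the other role groups overlapped between the groups. Each member is set against its own shNon mean, which holds the shNon medians close to that mean. The values are those behind the fold changes, so the medians are no separate evidence. Members of a role group share arrays and are no replicates.

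**Figure D3:**
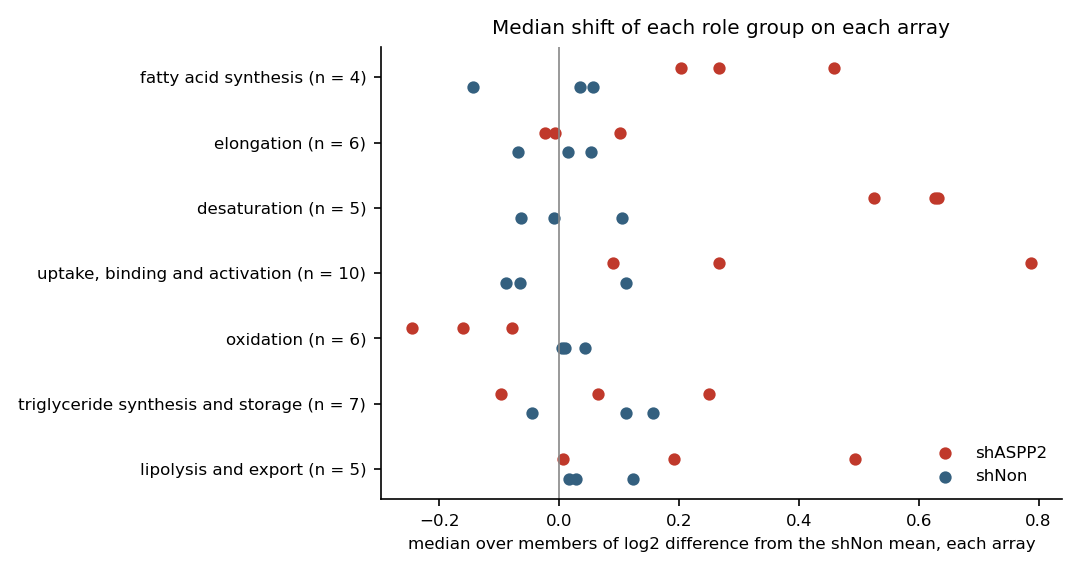
Median over the members of a role group of the log2 difference from each member's shNon mean (x axis), for each shASPP2 and shNon array. Desaturation medians were 0.53 to 0.63 on the shASPP2 arrays and -0.06 to 0.11 on the shNon arrays, and oxidation medians were -0.25 to -0.08 on the shASPP2 arrays and 0.00 to 0.04 on the shNon arrays.

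Triglyceride synthesis and storage genes showed no common direction. Of 7 genes, 5 were above 0 and 2 below, none had an unadjusted p under 0.05 in the main fit, and the median log2 fold change was 0.07. DGAT2, which adds the last acyl chain in liver, had 155, 153 and 187 units in shASPP2, against 89.1, 156 and 195 units in shNon. The groups overlapped fully, with 0.24 (SE 0.30, limma adjusted p = 0.796), and without shNon array 1 the sign turned (-0.09). PLIN2, the droplet coat protein that marks stored lipid in liver cells (ADFP on the array), had 3429, 4923 and 3773 units in shASPP2, against 5488, 4891 and 6768 units in shNon. Only shASPP2 array 2 reached into the shNon range, and the log2 fold change was -0.50 (SE 0.22, limma adjusted p = 0.444). LPIN2, a phosphatidate phosphatase, had -0.35 without overlap, and its relative LPIN1 had 0.40 with overlap. The second LPIN1 feature gave 0.77, also with overlap. With the mean of all features, LPIN1 (0.59) and PLIN2 (-0.50) had unadjusted limma p-values of 0.0260 and 0.0431, in opposite directions. Their limma adjusted p-values were 0.334 and 0.380. DGAT1, GPAM and AGPAT2, which act at the last, first and second acylation, had 0.07, 0.07 and 0.34, all with overlap. Without single arrays DGAT1 had -0.02 to 0.16, GPAM -0.03 to 0.19 and AGPAT2 0.09 to 0.61, the AGPAT2 extremes being without shNon arrays 1 and 2. GPAM pointed the other way on its second feature (-0.34).

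Lipases and export genes split. PNPLA3, a liver droplet lipase homologue that is induced by feeding and by SREBP-1 (chromosome 22, 42650951 to 42674781, hg18), had 382, 437 and 395 units in shASPP2, against 134, 206 and 212 units in shNon. The groups were far apart, with a fold of 2.24 (log2 1.17, SE 0.23, limma adjusted p = 0.168; 0.0177 with trend and robust variance). Its other feature gave 1.39 and also passed over all features with trend and robust variance (adjusted p = 0.0137). In the trend and robust fit PNPLA3 no longer passed when shNon array 1 was left out, at 0.0559, or when any 1 of the shASPP2 arrays was, at adjusted p-values of 0.0874 to 0.147.

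PNPLA2, the main triglyceride lipase of droplets, had 424, 679 and 635 units in shASPP2, against 760.0, 913 and 848 units in shNon. It was lower on every shASPP2 array, with a log2 fold change of -0.56 (SE 0.23, limma adjusted p = 0.417; -0.35 without shASPP2 array 1). MTTP had 459, 366 and 373 units in shASPP2, against 288, 268 and 291 units in shNon. It was higher without overlap, by 0.49 log2 (SE 0.17, limma adjusted p = 0.362), while APOB, the protein it loads, was dim at 45.8 units in shASPP2 and 46.1 units in shNon. LIPE, hormone-sensitive lipase, was dim. ANGPTL4, a secreted inhibitor of LPL, had 0.23 with overlap, and -0.12 without shNon array 3.

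**Figure D4:**
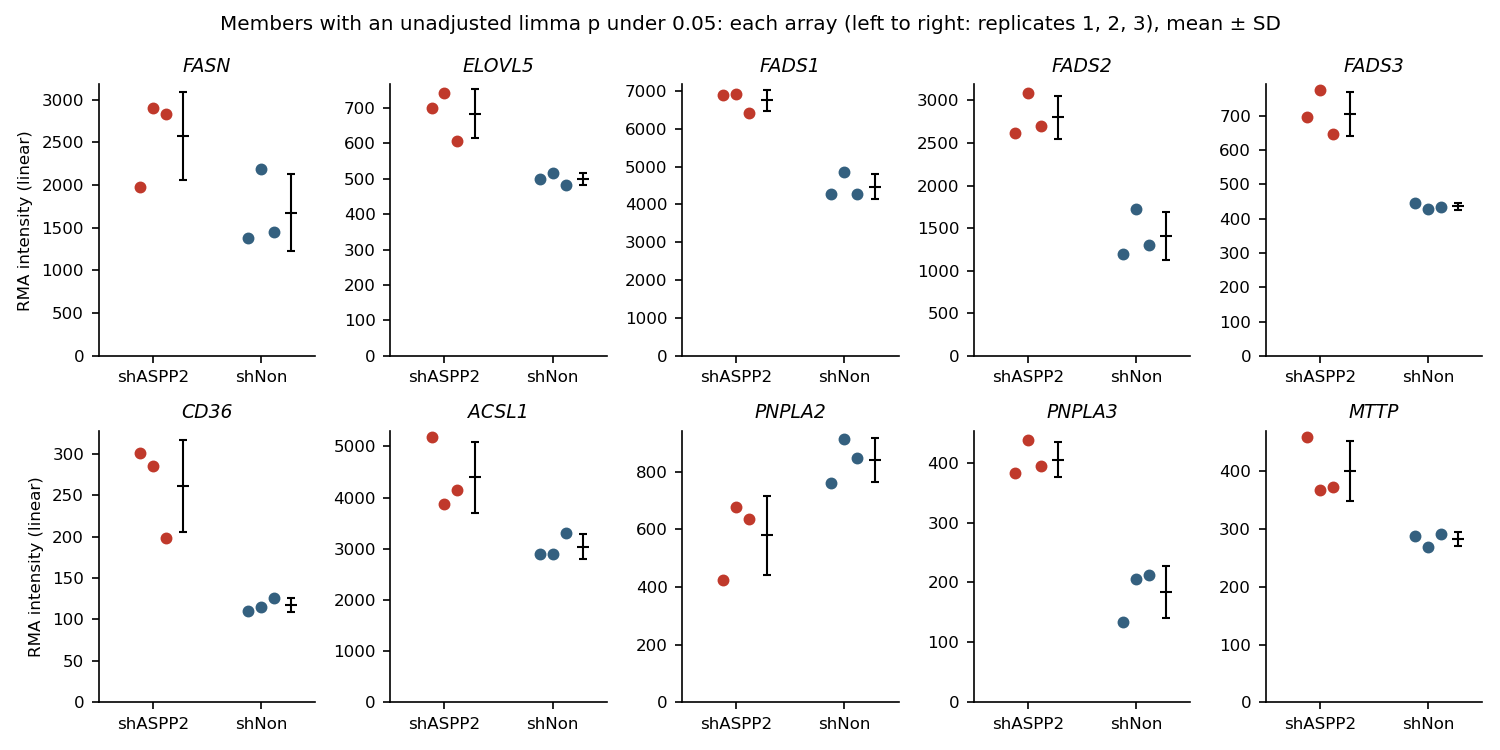
RMA intensity (linear, y axis from 0) of the 10 members with an unadjusted limma p under 0.05 on each array, with mean ± SD (n = 3) beside the points. In 9 of the 10 genes, all but FASN, the shASPP2 and shNon arrays do not overlap, and PNPLA2 is the 1 that is lower in shASPP2.

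The wider pathway was described with 136 other genes. Of these, 0 passed the limma test over all genes and 10 passed with trend and robust variance, 5 in each direction, or 7.35% against 2.14% of all genes. Another mark, an unadjusted p under 0.05, was met by 13 higher genes and 13 lower genes, or 19.1% against 11.5% of all genes. The median log2 fold change was -0.07. Among 22 genes of carbon supply and regulators, 1 was higher and 2 were lower by that unadjusted p. That was 13.6% of them, against 11.5% of all genes. PPARA, the receptor that drives oxidation genes, averaged 1165 ± 150 units in shASPP2 and 2483 ± 243 units in shNon (SD, n = 3 each). Its log2 fold change was -1.10 (SE 0.18, limma adjusted p = 0.124; 2.80e-04 with trend and robust variance). The other PPARA features gave -0.08, -0.67 and -0.81, the first of them with overlap. In the trend and robust fit over all features none of them passed, at adjusted p-values of 0.947, 0.156 and 0.126. Both the size and the call therefore depend on the feature. NR1H3, the lipid-sensing receptor LXRα, had -0.55 (limma adjusted p = 0.369, 0.0973 with trend and robust variance). PRKAA2, a catalytic subunit of AMPK, had 0.77 (limma adjusted p = 0.284, 0.0417 with trend and robust variance).

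Other oxidation and ketone body enzymes were the sub-list most often lower. Of 37 genes, 8 were lower and 1 was higher at an unadjusted p under 0.05, or 21.6% lower against 5.93% of all genes, and the median log2 fold change was -0.27. PECR, a peroxisomal enoyl-CoA reductase, is counted among the 8 lower genes of this sub-list, although it acts in chain elongation. It averaged 419 ± 14.6 units in shASPP2 and 682 ± 25.4 units in shNon (SD, n = 3 each). Its log2 fold change was -0.70 (SE 0.16, limma adjusted p = 0.201). ACAD11, an acyl-CoA dehydrogenase, had a log2 fold change of -0.78 (limma adjusted p = 0.222; 0.0236 with trend and robust variance). BDH1, the ketone body dehydrogenase, was the higher 1 at 0.83, but it was dim, and with the mean of its features it had 0.16. The 8 lower genes held a dim gene too.

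In the other sub-lists the genes were divided. Of 25 uptake, binding and activation genes 5 had an unadjusted p under 0.05, of which 4 were higher (5.54% of all genes were) and 1 was lower (5.93% of all genes were). FABP3, a fatty acid carrier best known from heart, averaged 991 ± 99.6 units in shASPP2 and 435 ± 152 units in shNon (SD, n = 3 each; log2 fold change 1.24, SE 0.27, limma adjusted p = 0.201; 0.00318 with trend and robust variance). The acyl-CoA thioesterases ACOT1 and ACOT2 had 0.79 and 0.41, but their sequences are near-identical and the array may not separate them. The transport protein SLC27A3 had -0.63, and -0.30 with the mean of its features. Of 40 genes of triglyceride handling 6 were higher by the same mark (5.54% of all genes were) and 2 lower (5.93% of all genes were). GPAT3, a glycerol phosphate acyltransferase, had 0.62 and the droplet coat protein PLIN3 0.59, while HSD17B11, a droplet-associated dehydrogenase, had -0.65 and the glycerol kinase GK -0.83. These 4 were named for their small p. In the trend and robust fit, which called 2.14% of all genes, all 4 passed at adjusted p-values of 0.00553 to 0.0342. Without single arrays HSD17B11 passed in 6 of 6 such fits, GPAT3 and PLIN3 in 2 each and GK in 1. Of 12 other synthesis genes 1 had an unadjusted p under 0.05, or 8.33% against 11.5% of all genes. It was HACD2, a dehydratase of the elongation cycle, with a log2 fold change of 0.63 (limma adjusted p = 0.343, 0.0556 with trend and robust variance).

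**Figure D5:**
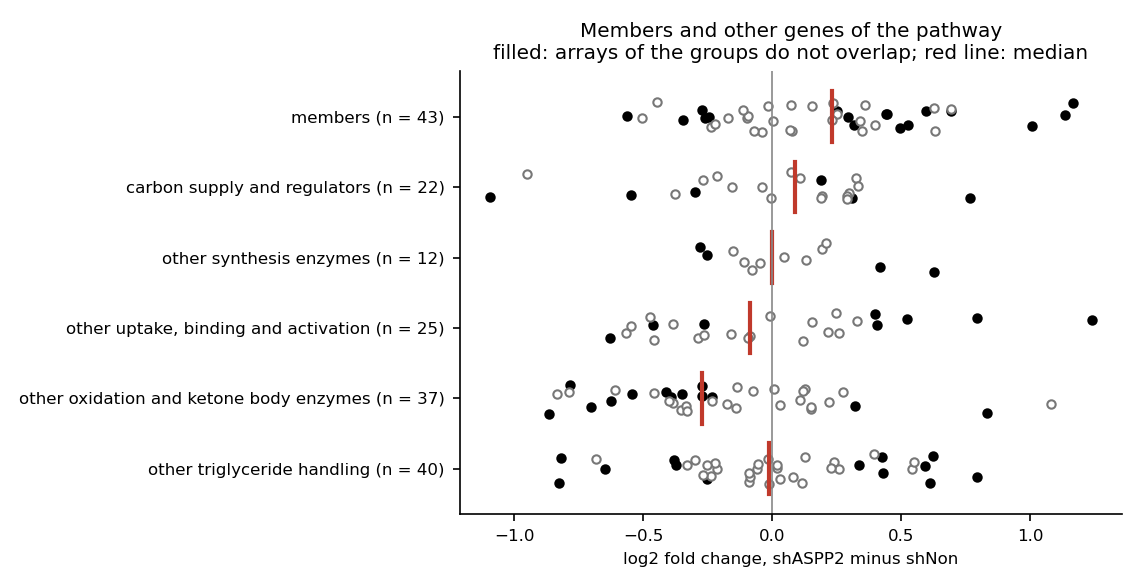
Log2 fold change (x axis, shASPP2 minus shNon) of the 43 members and of the 136 other pathway genes in 5 sub-lists. Red lines are medians, at 0.23 for the members and -0.27 for the other oxidation and ketone body enzymes, and filled points are genes whose arrays do not overlap.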

How the data were processed

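RNA of 6 cultures was measured on 1-colour NimbleGen arrays. The authors deposited 1 linear intensity per feature and array, summarised with RMA per the submitters' processing notes (its settings: not given in the sources used here). RMA's background step compresses differences between dim features, and its normalization between arrays hides differences in total RNA. The series' value table, also deposited, was equal to them in every cell (0 differing). Of 45033 features, 38916 were named through gene identifiers in a RefSeq table, 78 through accessions, 3954 kept the file's name and 2085 had none, and 23593 genes resulted. Positions are those of the files (hg18).

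Log2 intensities were fitted with limma 3.58.1 in R 4.3.3 (group as the only term, two-sided, Benjamini-Hochberg over all genes, threshold 0.05). Precision is limited by the number of arrays, and with 3 against 3 an exact permutation test cannot go below p = 0.1. The fit was tested on simulated data. Alternatives were the value table, median centring, cyclic loess, a filter on dim genes, trend and robust variance, the mean of a gene's features, the replicate block and leaving out each array. Same-numbered arrays of the groups did not deviate together (r = 0.06, -0.08 and -0.13), so no pairing by number was seen. A weak pairing could go unseen with 3 arrays per group.

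Members, lists and alternatives were chosen with earlier results of these data known. Genes given with every array were those with an unadjusted p under 0.05 or a trend and robust call, and 8 fixed enzymes. In the wider lists up to 4 genes with the smallest p under 0.05 were named in each sub-list, and a gene that this rule names is not reported here.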

Additional observations from a re-analysis of the deposited data

How the results depend on the processing

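With few arrays, calls depend on the variance model. The number of genes past an adjusted p of 0.05 was 24 in limma, 130 among genes above the dim level, 506 with trend and robust variance, 40 with the mean of all features and 0 with the replicate block (limma; 8 members kept an unadjusted p under 0.05 there, with 7 higher and 1 lower), and 0 to 6 when single arrays were left out. Members past it were 0 in limma and 3 with trend and robust variance. In fits with trend and robust variance without single arrays, an alternative chosen after the data were seen, the counts without shNon arrays 1, 2 and 3 were 369, 507 and 590 genes and without shASPP2 arrays 1, 2 and 3 they were 272, 262 and 212, with 1 to 5 members (1, 4 and 5, then 2, 1 and 2). FADS2 passed in all 6 of these fits, FADS1 in 4, PNPLA3 in 2, and CD36, ACSL1 and FASN in 1 each. Of the other pathway genes called in the full fit of that kind, PPARA and FABP3 passed in 6, ACOT1 and ACAD11 in 3, PRKAA2 in 2 and SLC27A3 in 1. The replicate block, for whose numbers no pairing was seen, and the remaining alternatives left members at 0 calls. The filter on dim genes brought PPARA (adjusted p = 0.0392) and ACOT1 (adjusted p = 0.0491) past the threshold. Members with an unadjusted p under 0.05 were 6 to 10 when single arrays were left out (10 in the full limma fit) and 10 to 15 in the added fits. Members without overlap were 18 to 23 when single arrays were left out (17 in full). Leaving out an array can only keep or raise that count, and no share over all genes is given beside it, so the rise is not read. The members' median of 0.23 log2 was 0.10 with the mean of all features and 0.033 to 0.25 when single arrays were left out, the lowest without shNon array 3, with 0.1348 without shASPP2 array 2, in both variance models. Of 195 alternative values for the 15 named members, 190 kept their sign and stayed uncalled, 3 passed the threshold and 2 turned sign. None of the 15 was called in the main limma fit, so those 190 values show a kept sign and no kept call. Without single arrays ACACA had -0.1268 to 0.2127, turning sign without shASPP2 array 2, and DGAT2 had -0.0857 to 0.4784, turning sign without shNon array 1, in both variance models. Median centring moved the median of all genes by -0.04 log2. Dim genes lie near the random-probe level, where differences are not measured reliably.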
